A study of Mus musculus with 2 samples.

Results

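The genes described here run the breakdown of glucose to pyruvate, the exchange of pyruvate and lactate, and the entry of pyruvate into mitochondria. They were chosen by name: 37 genes, each found through the RefSeq accession of at least 1 probe, of 20659 genes named that way on the array. In all, 55 probes read them, 11 genes by more than 1 probe and 26 by a single probe. The scanner software flagged 36 of them as well above background on each array, and Pdk4 on the wild-type array only. Over the whole array 16185 named genes met that criterion.

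Retina was taken at postnatal day 14 from wild-type (WT) mice and from mice labelled Mef2d KO. The deleted gene codes for a MEF2 transcription factor. Each group was 1 one-colour array, so the differences below have no replicate check and come without p-values. The strain, sex and number of the animals, and the part of Mef2d that was deleted, were not stated in the sources used.

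Photoreceptors turn most of the glucose they take up into lactate even with oxygen present, which makes the retina one of the most glycolytic tissues of the body. Glucose enters through transporters of the Slc2a family and is trapped by hexokinases. It is then split and oxidised to pyruvate in a chain of enzymes that often exist as paralogs, with different forms in neurons, muscle and liver. Pyruvate leaves the chain as lactate, through lactate dehydrogenase and the Slc16a carriers, or enters mitochondria under the control of the pyruvate dehydrogenase kinases.

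Levels are log2 values of the processed signal relative to the 75th percentile of the array, and differences are Mef2d KO minus WT on that scale. The error written as ± comes from the error model of the scanner software for 1 pair of spots, and leaves out variation between animals. It was 0.20 for most of these genes. For 432 probes printed more than once, the SD of the difference over spots had a median of 0.082. Replicate spots thus differed less at levels above -3, with a median of 0.061, but more at or below -3, with 0.38. Levels of different genes come from different probes and are not compared with each other.

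Mef2d itself gave differences of 0.43 ± 0.20 and 0.14 ± 0.21 with its probes, so neither was lower on the array labelled Mef2d KO, and since the sources do not place these probes relative to the deletion, they do not check the label. Arr3, a cone arrestin, differed by -5.36 with its probe of highest mean level and by -8.23 with its other probe. Xist, the RNA of the inactive X chromosome, was not well above background in WT, and its probes were higher on the other array by at least 51.7-fold and 26.4-fold. The Y-linked gene Eif2s3y was read on both arrays, at levels of 2.66 in WT and 2.30 on the other. Genotype and the sex make-up of the animals cannot be told apart. Of the genes described, Pfkfb1, Pgk1, Pdk3 and Pdha1 are X-linked, with differences of 0.21, -0.21, -0.22 and -0.067 (0.11 with median scaling for Pdha1).

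Across the pathway, 1 hexokinase and 1 muscle-type mutase stood apart from a chain that differed little. Among the 36 genes read on both, Hk2 and Pgam2 were lower in Mef2d KO by 2-fold or more, 2 genes where 1.74% of all genes were. None, 0 of 36, was higher by that much, against 0.618% of all genes. With median scaling 170 of all genes were lower and 151 higher by 2-fold or more, with normexp background 95 and 63, and with 75th percentile scaling 281 and 100. A negative difference was seen in 29 of the 36, against 51.2% of all genes. The median of the 36 was -0.20, with quartiles of -0.26 and -0.084, and the median of all genes was -0.0060, with quartiles of -0.16 and 0.11. In bulk tissue, fewer cells of a type and less RNA per cell cannot be told apart.

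**Figure D1:**
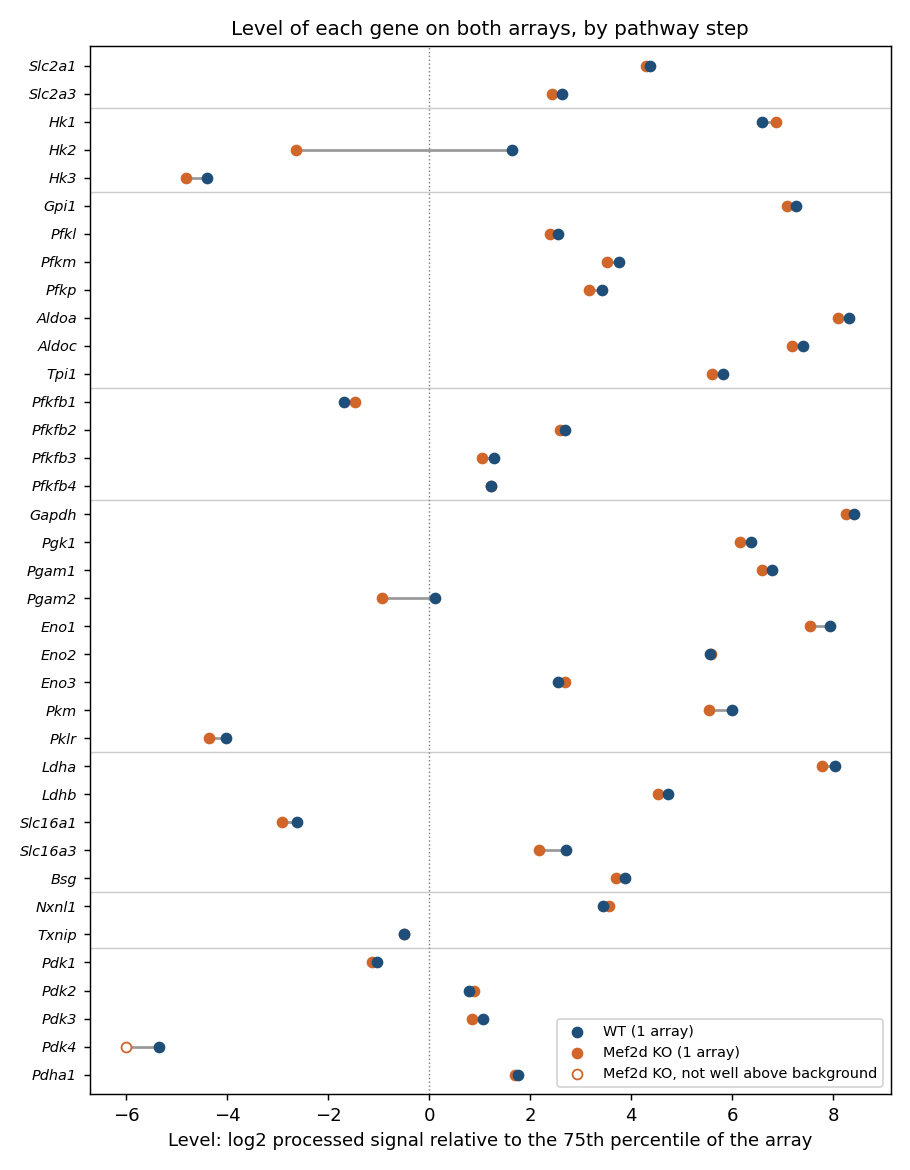
Level of each of the 37 genes (log2 processed signal relative to the 75th percentile of the array, horizontal axis) on the WT array (blue) and the array labelled Mef2d KO (orange; open where not well above background), ordered by pathway step and separated by grey lines. Each point is 1 array. The widest gap is that of Hk2, from 1.63 to -2.63, and most pairs lie within 0.5 of each other.

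The count of negative differences depended on how the arrays were scaled. Scaling to the median probe in place of the 75th percentile added 0.18 to every difference and moved the median of all genes to 0.17. Under it 22 of the 36 genes had a negative difference, against 22.6% of all genes, and their median was -0.021. Relative to the median of all genes the genes described lay 0.19 lower under both scalings, and 29 of 36 lay under that median. Both values are the same by construction, since a constant moves every gene alike. Of the 37 genes, with the dim Pdk4 included, 21 had a negative and 5 a positive difference under all the scalings and normalizations tried. The other 11 had another sign under at least 1 of them. The like shares of all genes were not counted, so these counts have nothing to be set against.

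The share of negative differences also varied with the level of a gene. At a mean level below 1, where 58.6% of all genes had a negative difference, 7 of 10 of these genes did. Between levels of 1 and 7 the share was 39.7% of all genes and 16 of 20 of these, with medians of 0.032 and -0.20. At 7 or above, 76.8% of all 82 genes and all 6 of these genes had one, with medians of -0.11 and -0.21. The bands were chosen after the data were seen.

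**Figure D2:**
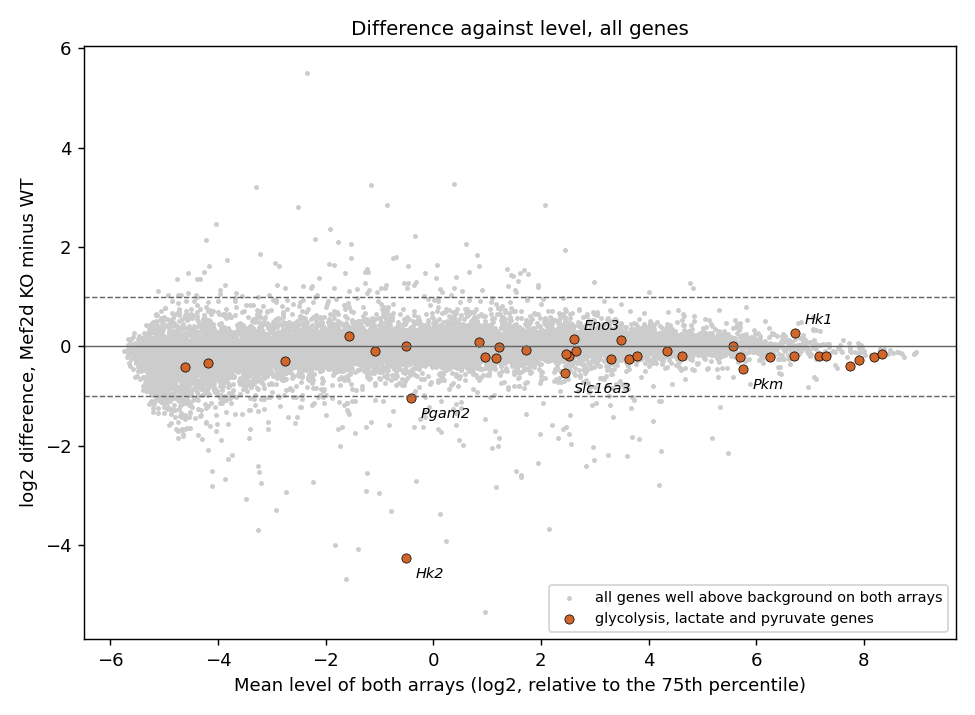
Difference (log2, Mef2d KO minus WT, vertical axis) against the mean level of both arrays (log2, horizontal axis) for the 16185 genes well above background on both arrays (grey) and the 36 genes of glycolysis, lactate and pyruvate control among them (orange). Dashed lines mark 2-fold. Hk2 lies at -4.26 and Pgam2 at -1.04, while most other orange points sit just under 0 at all levels.

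Glucose transporters showed small differences. Slc2a1, the main glucose transporter of the blood-retina barrier and of photoreceptors, had levels of 4.38 in WT and 4.29 on the array labelled Mef2d KO. Its difference of -0.091 turned to 0.087 with median scaling. Slc2a3, the neuronal glucose transporter, stood at 2.63 and 2.43, a difference of -0.20. Both lay within the scanner error of 0.

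The hexokinases, which phosphorylate glucose and so keep it in the cell, differed from each other. Hk2, the form that photoreceptors carry in addition to the general one, gave a processed signal of 2501 in WT and 138 on the array labelled Mef2d KO. Its levels were 1.63 and -2.63, a difference of -4.26 ± 0.21 or 19.2-fold, and 3 of the 16185 genes had a lower one. The Hk2 spot was well above background on both arrays, and a single probe reads this gene. Hk1, the form of brain and most other tissues, had levels of 6.60 and 6.86, a difference of 0.27 ± 0.20, and its other probe gave 0.12. The difference of Hk2 was thus 4.53 lower than that of Hk1. Hk3, a form of blood cells, was dim, at -4.40 and -4.81, and its difference of -0.41 ± 0.28 came to -0.061 with normexp background. Among the further glucose kinases, Hkdc1 differed by 0.18 and Adpgk, which uses ADP, by -0.10 (0.077 with median scaling).

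Enzymes between glucose phosphate and the triose phosphates had differences in a narrow band near the scanner error of 0.20. All 7 genes lay from -0.26 to -0.15, with a median of -0.21. Gpi1, the isomerase that makes fructose phosphate, differed by -0.19, and its 3 probes ranged from -0.30 to -0.19. The phosphofructokinases, which commit sugar to the pathway, differed by -0.15 for the liver form Pfkl (0.031 with median scaling), -0.25 for the muscle form Pfkm and -0.26 for the platelet form Pfkp. Pfkm was printed in 10 spots, whose differences ran from -0.33 to -0.13 with an SD of 0.062. Pfkm kept a negative difference under all the scalings tried, but at -0.068 with median scaling it lay within the scanner error of 0. The spread over spots leaves out the choice of scaling and variation between animals. The aldolases, which split the sugar, differed by -0.21 for Aldoa and -0.21 for Aldoc, a form of brain and glia. Tpi1, which interconverts the products of that split, differed by -0.22 and -0.23 with its probes. With median scaling 6 of these genes had differences between -0.084 and -0.0090.

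The PFKFB genes encode enzymes that make and remove the allosteric activator of phosphofructokinase. Pfkfb1, the liver and muscle form, differed by 0.21, from a level of -1.68 in WT to -1.47. Pfkfb2, the heart form, differed by -0.099 (0.079 with median scaling). Pfkfb3, the form with the strongest kinase activity, differed by -0.23, and its dimmer probe by -0.13. Pfkfb4 differed by -0.0064 (0.17 with median scaling), and its dim other probe by 0.20. The 4 genes ran from -0.23 to 0.21, with a median of -0.053.

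In the later steps, from triose phosphate to pyruvate, the 9 genes had differences from -1.04 to 0.15, with a median of -0.21. Gapdh, the dehydrogenase that yields NADH, had 7 probes with differences from -0.25 to -0.069, and its probe of highest mean level gave -0.16 (0.015 with median scaling and 0 with normexp background). Pgk1, the first ATP-yielding kinase of the pathway, differed by -0.21, and Pgam1, the general phosphoglycerate mutase, by -0.20. Pgam2, the muscle form of that mutase, had levels of 0.11 in WT and -0.93 on the array labelled Mef2d KO. Its difference was -1.04 ± 0.20, or 2.06-fold lower. It no longer passed 2-fold with median scaling (-0.87) or normexp background (-0.86). Its difference was 0.84 lower than that of Pgam1.

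Of the enolases, Eno1, the general form, had levels of 7.93 and 7.54 and differed by -0.39 ± 0.20. Eno2, the form of neurons, stood at 5.56 and 5.57, a difference of 0.0100 that turned to -0.0023 with cyclic loess and was negative too with the percentile over probes well above background. Eno3, the muscle form, had levels of 2.55 and 2.70 and differed by 0.15. The muscle-type genes Pfkm, Pgam2 and Eno3 thus had differences of -0.25, -1.04 and 0.15, which do not share a sign. Pkm, the pyruvate kinase of brain, muscle and photoreceptors, had levels of 5.99 and 5.53 and differed by -0.45 ± 0.20. It is read by 1 probe, and which of its splice forms that probe reads was not tested. Pklr, the liver and red cell form, was dim at -4.01 and -4.35, with a difference of -0.34 ± 0.26 that came to 0.0036 with cyclic loess. Several of these enzymes, Gapdh, Eno1 and Pgk1 among them, have near-identical copies in the genome, and whether their probes read such copies was not tested.

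**Figure D3:**
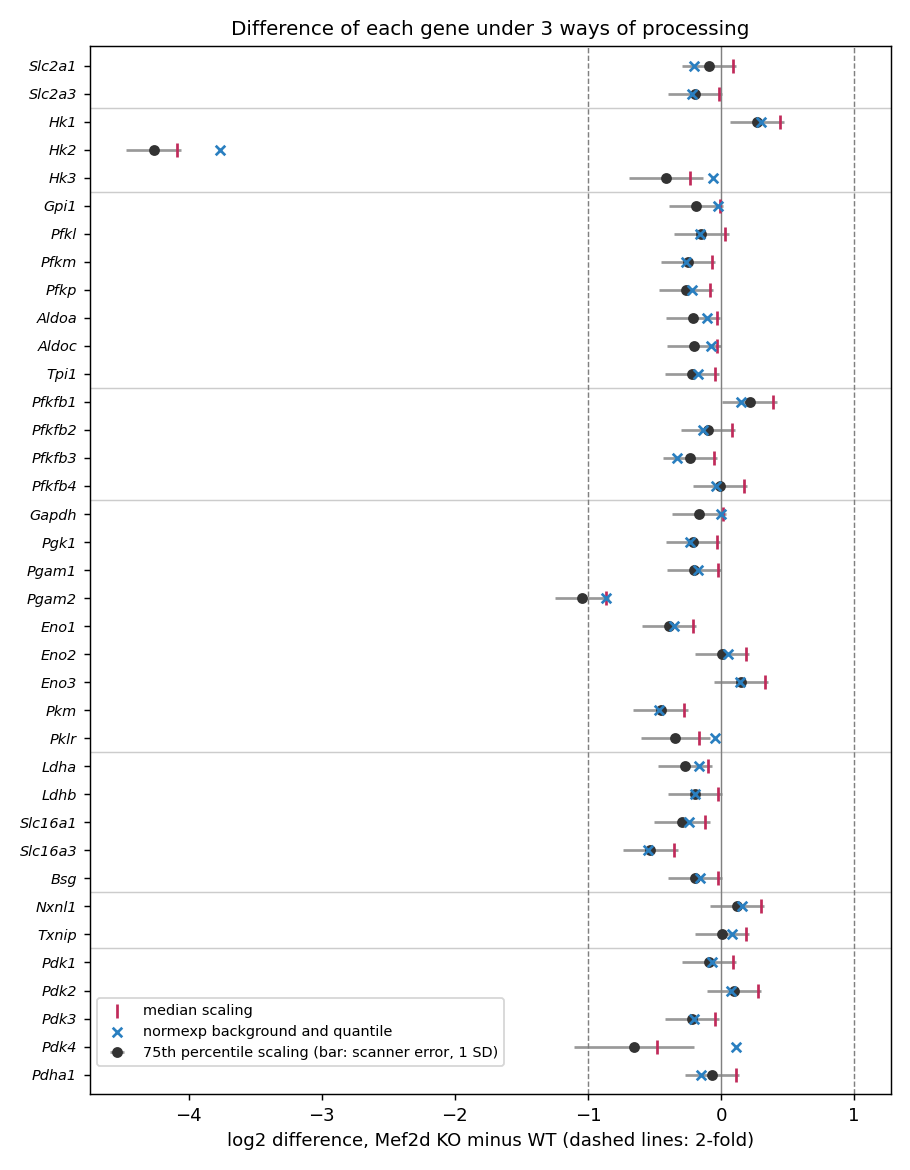
Difference of each of the 37 genes (log2, Mef2d KO minus WT, horizontal axis) with 75th percentile scaling (black, bars give the scanner error of 1 SD), median scaling (red bars) and normexp background with quantile normalization (blue crosses), by pathway step. Dashed lines mark 2-fold. Hk2 stands at -4.26, -4.08 and -3.77, and Pgam2 lies close to the 2-fold line at -1.04, -0.87 and -0.86.

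The 5 lactate genes all had negative differences under each of the scalings tried. Of all genes, 51.2% had one with 75th percentile scaling and 22.6% with median scaling, and the share under every scaling was not counted. With median scaling only Slc16a3, at -0.35, lay beyond the scanner error of 0. Ldha, the subunit that favours lactate production, differed by -0.27 with its probe of highest mean level, and its 3 probes ranged from -0.35 to -0.27. Ldhb, the subunit that favours pyruvate, differed by -0.20 (-0.019 with median scaling), so the subunits differed by less than the scanner error. Slc16a3, the lactate exporter of glycolytic cells, had levels of 2.71 in WT and 2.18 in Mef2d KO. Its probes gave -0.53 and -0.58, or 1.44-fold lower with the first, the lowest difference among these genes after Hk2, Pgam2 and the dim Pdk4. Slc16a1, a more widely expressed carrier, stood at -2.61 and -2.91, a difference of -0.30 ± 0.21. Bsg encodes basigin, the membrane partner that brings these carriers to the cell surface, and differed by -0.20 (-0.019 with median scaling).

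Nxnl1 and Txnip connect the pathway to thioredoxins. Nxnl1 encodes rod-derived cone viability factor, which acts through basigin and Slc2a1 on glucose entry into cones. It had levels of 3.43 and 3.55, and its probes differed by 0.12 and 0.0031. Txnip, an arrestin-like protein that lowers glucose uptake, differed by 0.0059 with its brighter probe, from -0.499 to -0.493. Its dimmer probe gave -0.47, so the probes of this gene do not agree in sign.

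Pyruvate dehydrogenase control genes had differences from -0.22 to 0.096 for the 4 read on both arrays, and Pdk4 was dim. The Pdk kinases switch off pyruvate dehydrogenase, and Pdha1 encodes the catalytic subunit that they phosphorylate. Pdk1 differed by -0.090 (0.088 with median scaling), Pdk2 by 0.096 and Pdk3 by -0.22. Pdk4, the form of fasting and fat use, was at a level of -5.34 in WT and not well above background on the other array, where it measured -6.00. Its bound with 75th percentile scaling was 1.44-fold lower, or 0.53 in log2 units against a scanner error of 0.45. It differed by -0.26 with cyclic loess, -0.016 with quantile normalization and 0.11 with normexp background. Pdha1 differed by -0.067 (0.11 with median scaling).

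The promoters of the 3 genes with the lowest differences among those well above background on both arrays are shown for the motifs they hold. RefSeq promoter sequences (GRCm38.p6) were found for 35 of the 37 genes, in 55 entries, and the 250 bases before each start were searched on both strands. Capitals mark the MEF2 site and the core ACGTG or its reverse complement, CACGT. That core is a motif bound by hypoxia-inducible and related factors, and it also lies inside CACGTG. Hk2 lies at chr6:82774455-82774704 (minus strand), Pgam2 at chr11:5803797-5804046 (minus strand) and Slc16a3 at chr11:120948817-120949066 (plus strand), each read 5′ to 3′ towards its start.
Hk2: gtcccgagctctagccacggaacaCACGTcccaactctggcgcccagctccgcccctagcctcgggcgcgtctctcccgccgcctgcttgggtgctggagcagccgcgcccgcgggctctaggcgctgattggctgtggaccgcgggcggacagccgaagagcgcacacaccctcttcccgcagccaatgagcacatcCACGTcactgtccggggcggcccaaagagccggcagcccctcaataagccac
Pgam2: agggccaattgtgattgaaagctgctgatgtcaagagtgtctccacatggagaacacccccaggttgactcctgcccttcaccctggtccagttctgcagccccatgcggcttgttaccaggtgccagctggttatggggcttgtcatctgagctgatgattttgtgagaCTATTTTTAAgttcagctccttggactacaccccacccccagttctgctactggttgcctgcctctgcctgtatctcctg
Slc16a3: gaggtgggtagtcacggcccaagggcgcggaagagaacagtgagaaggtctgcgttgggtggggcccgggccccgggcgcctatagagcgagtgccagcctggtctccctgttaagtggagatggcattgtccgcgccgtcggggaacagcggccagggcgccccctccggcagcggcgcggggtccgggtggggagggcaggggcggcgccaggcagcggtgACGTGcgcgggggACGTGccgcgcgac

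The Pgam2 window held 1 MEF2 site, CTATTTTTAA, at positions -80 to -71 from the start. Among the 35 genes, Pfkfb1 also held one, and 2.92% of all 32851 promoter windows did. The Hk2 window held no match to the MEF2 site and 2 to the ACGTG core, and the Slc16a3 window held 2 of the core. That core was found in 34.5% of the 55 windows of these genes and 16.6% of all windows. CACGTG was in 10.9% and 6.02%, and TAATC, the core of sites for photoreceptor homeodomain factors, in 20.0% and 19.8%. Windows of 1 gene can overlap, and base composition was not compared. A match is a run of letters and not a measured site.

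The wider metabolism of glucose was read through 10 further lists of 95 genes, of which 87 were well above background on both arrays. In these, 3 genes were at least 2-fold lower and 1 was at least 2-fold higher, against 1.74% and 0.618% of all genes. A negative difference was seen in 55 of the 87, against 51.2% of all genes, and their median was -0.047, before the constant that median scaling adds. Slc16a6, a monocarboxylate transporter gene, had levels of 4.34 in WT and 2.15 in Mef2d KO. Its probes gave -2.19 and -1.94, or 4.56-fold lower with the first. The other lactate genes included Slc16a8, the lactate carrier of the pigment epithelium, at 0.39, and the dim Ldhc at -0.78 ± 0.33 (0.20 with its other probe, -0.063 with normexp background). Slc2a4, the insulin-responsive glucose transporter of muscle and fat, differed by -1.13 (-0.95 with median scaling and -0.82 with normexp background), and the dim fructose transporter Slc2a5 by 0.74.

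Glycogen genes included Pygm, the muscle glycogen phosphorylase, with levels of 1.54 and -0.44 and a difference of -1.98 ± 0.20. Its paralogs differed by -0.54 for the liver form Pygl and -0.069 for the brain form Pygb (0.11 with median scaling). The list of 11 had a median of -0.13 (0.045 with median scaling). Of the 6 gluconeogenesis genes 4 were read on both arrays, with a median of -0.35 (-0.17 with median scaling), and Fbp1 and G6pc both differed by -0.58. Both came nearer to 0 with normexp background, at -0.25 and -0.22, where its offset draws dim probes towards 0 by construction.

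Pathways that share the products of glycolysis held no gene past 2-fold. The 8 pentose phosphate genes ran from -0.13 for H6pd to 0.032, with a median of -0.051 (0.13 with median scaling) and Rpe at -0.11 (0.044 for H6pd and 0.071 for Rpe with median scaling). The 17 TCA cycle genes ran from -0.20 for Idh3a to 0.16 for Sdhd, with a median of -0.0095 (0.17 with median scaling). The 10 genes of mitochondrial pyruvate entry and oxidation had a median of 0.030 (0.21 with median scaling), with Pdp2, a phosphatase that reactivates pyruvate dehydrogenase, at 0.36 and its other probe at -0.24, and Pdhx at 0.21. Tigar, which lowers the activator of phosphofructokinase, and Eno4 differed by 0.39 and 0.40.

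Among 18 regulators the median was -0.10 (0.075 with median scaling). Hif1a, the hypoxia-inducible factor, differed by -0.23 (-0.055 with median scaling). Egln3, a prolyl hydroxylase that marks hypoxia-inducible factors for decay, differed by 1.03 with its brighter probe and 0.20 with the other, and by 0.73 with normexp background. Ppargc1a, a coactivator of mitochondrial genes, had levels of 2.11 and 1.27, and its probes differed by -0.84 and -0.97.

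**Figure D4:**
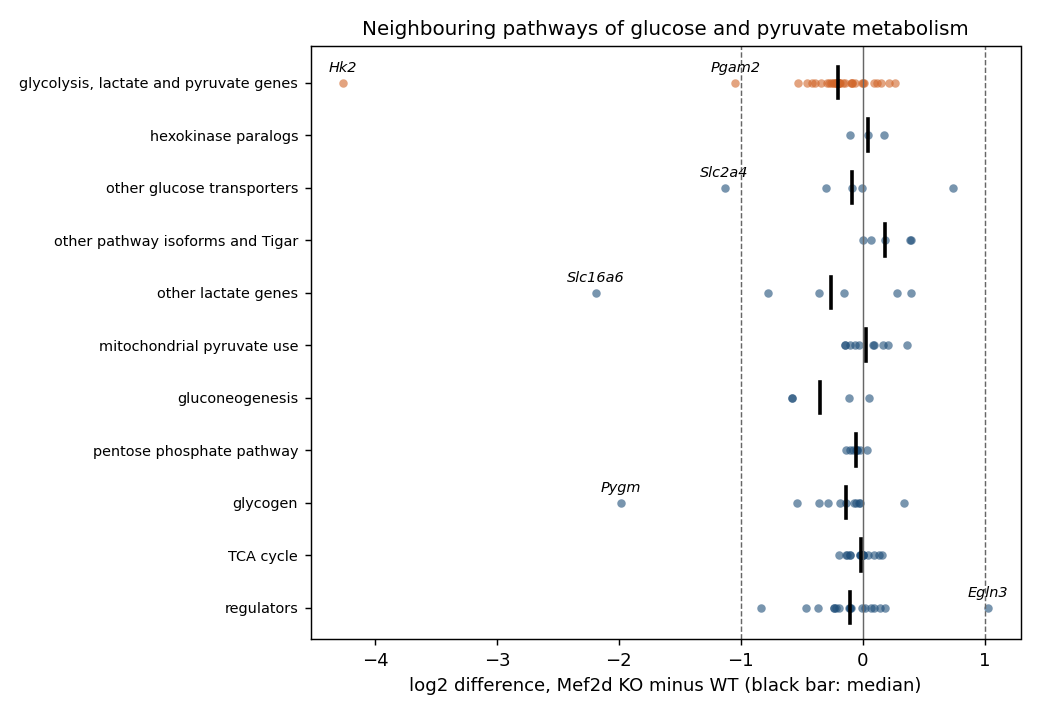
Difference (log2, Mef2d KO minus WT, horizontal axis) of each gene well above background on both arrays (points) in the pathway described (orange, 36 genes) and in 10 further lists (blue), with the median of each as a black bar and 2-fold as dashed lines. Genes past 2-fold are named. Beyond Hk2 and Pgam2 these are Slc2a4 (-1.13), Slc16a6 (-2.19), Pygm (-1.98) and Egln3 (1.03).

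Markers of retinal and other cell types gave the following values, and their part in the differences above was not tested. The summed levels of all marker lists are given before the constant that median scaling adds, and were not summed again with it. Each sum adds levels of different probes, so its brightest probes weigh most. The 10 rod markers had a median of -0.12 (0.063 with median scaling) and none past 2-fold, with summed linear levels of 1539 in WT and 1299 on the array labelled Mef2d KO. Of the 10 cone markers 2 were at least 2-fold lower, Arr3 and Pde6h, with a median of -0.21 (-0.030 with median scaling) and summed levels of 191 and 162. Mueller glia markers had a median of -0.15 (0.024 with median scaling) over 10 genes, and their summed levels were 320 and 297. Of the 8 endothelial markers none passed 2-fold, and their median was -0.17 (0.010 with median scaling) with sums of 35.4 and 34.3. Where sums lie as close as those of Mueller glia and endothelium, which array has the higher one depends on the scaling.

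Skeletal muscle markers, whose list also holds Pygm, had summed levels of 7.68 and 2.11 over the 6 of 10 genes read on both arrays, with 5 negative and a median of -0.78 (-0.61 with median scaling). Tnnt1 (-2.04) and Pygm were past 2-fold there and, with levels of 2.11 and 1.54 in WT, made up most of the sum. Myh8 differed by 0.0016 with its brighter probe and by -0.93 with the other. Acta1, Actn3 and Tnnt3 differed by -0.68, -0.48 and -0.89 (-0.53, 0.0073 and -0.18 with normexp background). The other genes of the list, Ckm, Myh1, Myh4 and Mylpf, were not well above background on both arrays. Lens markers summed to 107 in WT and 28.5 on the other array over 7 of 8 genes. Cryaa, Crybb2, Crygn, Mip and Bfsp2 were at least 2-fold lower. Crygf was at least 2-fold higher with its brighter probe (1.47) but not with the other (0.76), and Bfsp1 differed by 0.30. Pigment epithelium markers had a median of 0.22 over 7 genes (sums of 28.3 and 31.7). Microglia and blood markers had one of 0.49 over 7 genes, with Cd74 past 2-fold (sums of 30.9 and 39.9).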

How the data were processed

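Total RNA of 1 WT and 1 Mef2d KO retina sample was amplified and labelled with Cy3, per the labels' protocols, and read on 1 Agilent array each, whose design used build mm9, per the file headers. The deposited intensity values were background-subtracted and detrended by Agilent Feature Extraction 10.10.1.1, per the file headers, and not scaled between arrays. The authors' deposited series table held the same intensities times 1 constant per array (1.88 and 1.76), with no centring and medians of 155.1 and 136.6. The sources do not say how the constants were set.

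Processed signals were scaled to the 75th percentile of 59305 probe spots (807 and 858) and put on the log2 scale. Control spots and outlier spots (106 and 126) were left out, and spots of a probe were averaged. Of 55669 probes, 27231 were named by RefSeq accession (GRCm38.p6). The files used here hold no gene name column. The probe of highest mean level stood for a gene. Precision is limited by the number of arrays, 1 per group. On the arrays 75.5% and 69.6% of spots were well above background. None was saturated. A bound set the bright array's level against the lowest level well above background or, if higher, the dim probe's own level. The rule for names took all 37 genes, list genes past 2-fold and the 2 largest differences of each list. Hif1a, Slc16a8, Pygb and the markers named were added after their values were seen. The genes and lists were chosen with earlier results of these data known. Alternatives were other scalings, quantile normalization, cyclic loess, normexp background (offset 50, on median signals), the series table, other probe rules and other filters. Scripts were tested on simulated data and used R 4.3.3, limma 3.58.1, Python 3.11.15, numpy 2.4.6, pandas 2.3.3 and matplotlib 3.10.9.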

Additional observations from a re-analysis of the deposited data

How the results depend on the processing

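Of 11 alternatives for the count of negative differences and 10 for the counts past 2-fold, none gave a gene at least 2-fold higher. The count at least 2-fold lower was 2, and it was 1 with median scaling and 1 with normexp background and quantile normalization, where Hk2 alone passed. The median difference of -0.20 came to -0.021 with median scaling, which adds a constant to every difference. Relative to the median of all genes it lay between -0.21 and -0.15 under the 11 alternatives, and 28 to 31 genes lay under that median, in both cases chosen after the data were seen. Alternatives that only add a constant, such as median scaling, could not alter either value. Hk2 kept a negative difference in each of the 8 settings run gene by gene, from -4.28 to -3.77. Most of these could only leave this single-probe gene unchanged or add a constant. Quantile normalization, cyclic loess and normexp background could do more, and gave -4.22, -4.26 and -3.77. With normexp background Hk2 moved by more than the scanner error. Dim genes also did so: Hk3 and Pklr in 3 settings each and Pdk4 in 2. With normexp background the offset draws such differences towards 0 by construction. Txnip moved with the mean over probes, to -0.23. No paired analysis was possible because each group held 1 array. With 1 array per group, no difference given here, that of Hk2 included, can be set against variation between animals.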
